A study of Mus musculus with 64 samples.

Results

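The genes described here are 10 mouse genes of cellular iron handling, namely Trf, Tfrc, Slc11a2, Steap3, Fth1, Ftl1, Slc40a1, Cp, Aco1 and Ireb2. They were found by gene symbol among the 21114 genes of the deposited tables, and all 10 had a row in every table. The list was partly chosen by a measured value: Tfrc was selected on its rise under corticosterone in an hMet group, in a comparison by the authors whose values are not used here.

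RNA came from the dorsal (dHPC) and ventral hippocampus (vHPC) of C57BL/6 mice that were wild-type (WT) or heterozygous for the Val66Met variant of the gene for brain-derived neurotrophic factor (hMet). Male and female mice of each genotype drank vehicle (1% ethanol) or corticosterone (CORT, 25 mg/l, in 1% ethanol) for 6 weeks from 2 months of age, so every group received ethanol. The labels list 64 libraries in 16 groups of 4, that is M or F, WT or hMet and Veh or CORT in each region, and each library pooled RNA from 2 animals. The series design speaks of male mice, the vHPC and 2 weeks of treatment, and the extraction text of fewer replicates than are listed.

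For each gene the authors deposited a mean expression over the libraries of a region, in log2 CPM (counts scaled to the size of each library), with sexes, genotypes and treatments together. Whether the vHPC means cover every listed library cannot be told (see the degrees of freedom below). The deposited values analysed here hold no value per library and no mean per group. The levels therefore carry no error, a difference between the regions has no test, and no level can be given by sex, genotype or treatment. A CPM given below is 2 raised to the mean log2 CPM, and a percentile is the share of a region's genes with a lower mean. The labels give an approximate depth per library, and count totals were not used here.

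Cells take up iron bound to the plasma carrier transferrin through the transferrin receptor, reduce it in the endosome, and move it into the cytosol through a divalent metal transporter. Iron that is not used is held in ferritin, a shell of heavy and light chains, and leaves the cell through ferroportin. Iron regulatory proteins bind a stem-loop, the iron-responsive element, in the mRNAs of several of these genes when iron is scarce, which blocks translation where the element lies in the 5′ UTR and protects the mRNA from decay where it lies in the 3′ UTR. In the brain, oligodendrocytes hold much iron and make transferrin.

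The iron-responsive element is shown because its loop is what members of the uptake, storage and export arms have in common. Its letters, a C, any 5 bases, CAGTGN and then 5 bases that pair with the 5 before CAGTGN (G-U pairs allowed), were searched on the sense strand of the UTRs of every coding transcript in the GENCODE annotation of GRCm38. The capitals mark the bulged C and the loop. The heavy and light ferritin chains and ferroportin each had 1 match in the 5′ UTR, at chr19:9982732-9982761 (plus strand), chr7:45459778-45459807 (minus strand) and chr1:45925464-45925493 (minus strand):
Fth1: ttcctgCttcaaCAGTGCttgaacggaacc
Ftl1: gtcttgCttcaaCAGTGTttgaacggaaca
Slc40a1: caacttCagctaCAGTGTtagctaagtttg

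The transferrin receptor had 4 matches in the 3′ UTR, all on the plus strand, at chr16:32631219-32631248, chr16:32631598-32631627, chr16:32631663-32631692 and chr16:32631710-32631739:
Tfrc site 1: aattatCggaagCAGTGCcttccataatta
Tfrc site 2: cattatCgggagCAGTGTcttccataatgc
Tfrc site 3: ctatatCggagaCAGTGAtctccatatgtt
Tfrc site 4: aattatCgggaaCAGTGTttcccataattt

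Over all genes, 31 of 20916 (0.148%) had a match in a 5′ UTR and 129 of 21707 (0.594%) in a 3′ UTR. The other 6 members, Trf, Slc11a2, Steap3, Cp, Aco1 and Ireb2, had no match to these letters. This says only that the letters are not in the annotated UTRs. The search asked for bases that pair without interruption, so an element with an extra unpaired base in its stem would be missed. Lack of a match therefore does not show that a gene, Slc11a2 included, lacks the element. A match describes the sequence and is not a measured binding site.

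Ferritin heavy chain was the most abundant of the 10 genes in both regions, and Steap3 the least abundant in CPM. The authors' mean level of Fth1 was 11.33 log2 CPM (2567 CPM) in the dHPC, where 23 genes were higher, and 10.56 log2 CPM (1515 CPM) in the vHPC, where 38 genes were higher. From Fth1 down to Steap3 the means spanned 2.75 to 11.33 log2 CPM in the dHPC, while in the vHPC they spanned 2.59 to 10.56. The median percentile of the 10 members was 71.0 in the dHPC and 74.9 in the vHPC, with Steap3 at percentiles 38.8 and 45.2. The vHPC table holds more genes (21088 against 18283), and among the genes in both regions the median percentile was 71.0 in each, so percentiles over a whole table are not compared between regions.

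**Figure D1:**
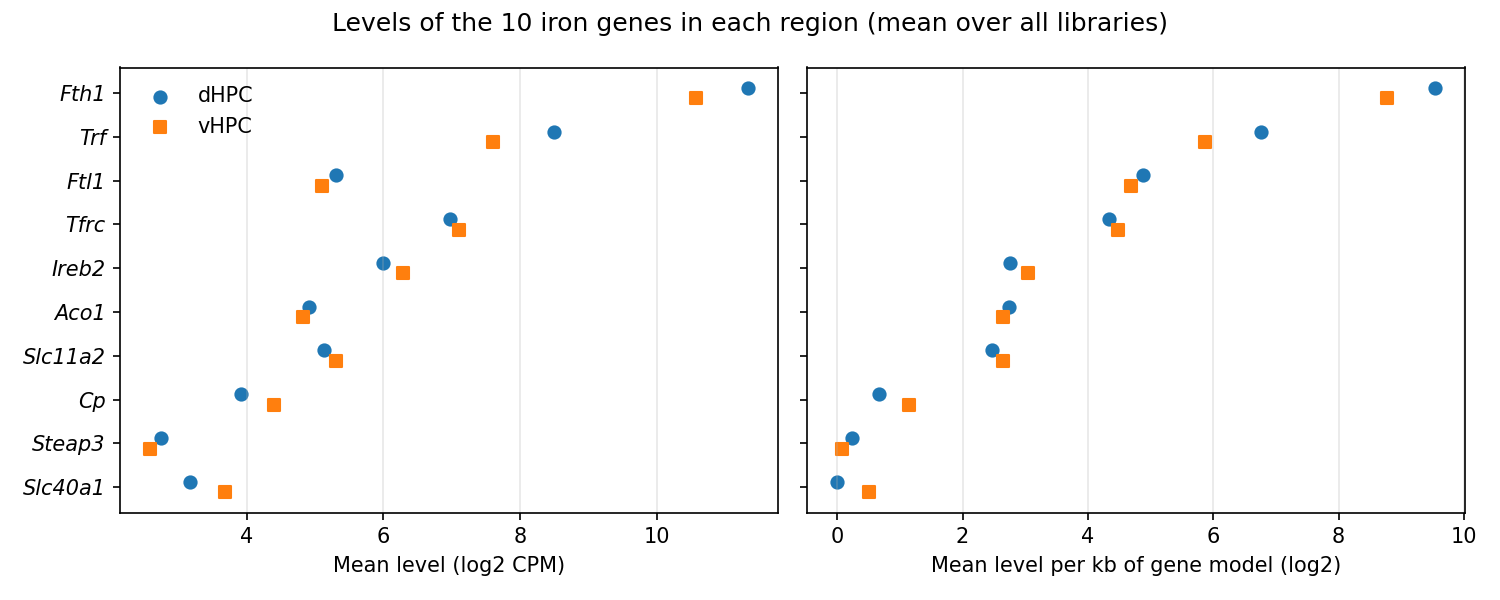
Authors' mean level of each of the 10 genes in the dHPC (blue circles) and vHPC (orange squares), in log2 CPM on the left and in log2 CPM per kilobase of gene model on the right. Each point is 1 mean over the libraries of a region, with no error available. Fth1 lies highest on both scales, at 11.33 and 10.56 log2 CPM.

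Among the uptake genes, transferrin had the highest level. Trf (chr9:103204001-103230444, minus strand) encodes the plasma carrier that delivers iron to the receptor. Its authors' mean was 8.50 log2 CPM (362 CPM, percentile 97.9) in the dHPC and 7.60 log2 CPM (194 CPM, percentile 95.6) in the vHPC. Reads of Trf may be shared with another gene, since 78.6% of the 2497 windows of 75 bases, the read length, in its longest coding transcript also occur, on either strand, in Gm20425, a protein-coding locus on the same strand that covers 63.5% of its exon bases. No level was found under the symbol Gm20425 in either region.

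The transferrin receptor showed nearly the same mean in both regions. Tfrc (chr16:32608920-32632794, plus strand), which brings transferrin-bound iron into the cell, had 6.97 log2 CPM (125 CPM, percentile 91.1) in the dHPC and 7.11 log2 CPM (138 CPM, percentile 93.2) in the vHPC. None of its 75-base windows occurred in another gene. Per kilobase of gene model, the level of Trf was 5.38 times that of Tfrc in the dHPC and 2.63 times in the vHPC, and the Trf part of these ratios carries the uncertainty from Gm20425.

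The endosomal genes were lower than the receptor. Slc11a2 (chr15:100387898-100425072, minus strand), the divalent metal transporter that moves iron out of the endosome, had 5.13 log2 CPM (35.1 CPM) in the dHPC and 5.31 log2 CPM (39.7 CPM) in the vHPC. Steap3 (chr1:120190757-120272705, minus strand), the endosomal ferrireductase known from erythroid cells, had 2.75 log2 CPM (6.75 CPM) and 2.59 log2 CPM (6.03 CPM). Per kilobase, Tfrc was 3.66 times Slc11a2 in the dHPC and 3.56 times in the vHPC, against 17.1 and 21.1 times Steap3.

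The chains of ferritin were far apart in deposited mean level. Fth1 (chr19:9980598-9985098, plus strand) carries the ferroxidase activity of ferritin, and Ftl1 (chr7:45457944-45459884, minus strand) the light chain that aids mineral formation. The authors' mean of Ftl1 was 5.31 log2 CPM (39.5 CPM, percentile 72.2) in the dHPC and 5.11 log2 CPM (34.5 CPM, percentile 73.8) in the vHPC. Per kilobase of gene model Fth1 was 25.1 times Ftl1 in the dHPC and 17.0 times in the vHPC. The Ftl1 part of these ratios carries the uncertainty from other genes with the same sequence, so the size of the gap is uncertain.

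The level of Ftl1 is uncertain, because 84.8% of the 894 windows of 75 bases in its transcript also occur in 8 other annotated genes. The share was 66.0% with Ftl1-ps1 alone, 27.2% with Gm15590 and 26.0% with Ftl2-ps, and how reads matching several genes were counted is not given in the sources used here. These copies had levels of their own in the tables, with 3.46 and 3.37 log2 CPM for Ftl1-ps1 in the dHPC and vHPC, 3.65 and 3.30 for Ftl2-ps, and 3.41 and 3.13 for Gm15590. Fth1 shared 2.32% of its windows, all with the pseudogene Gm6977, whose own level was 6.87 log2 CPM (dHPC) and 6.35 (vHPC). The other 7 members shared no window with another gene.

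**Figure D2:**
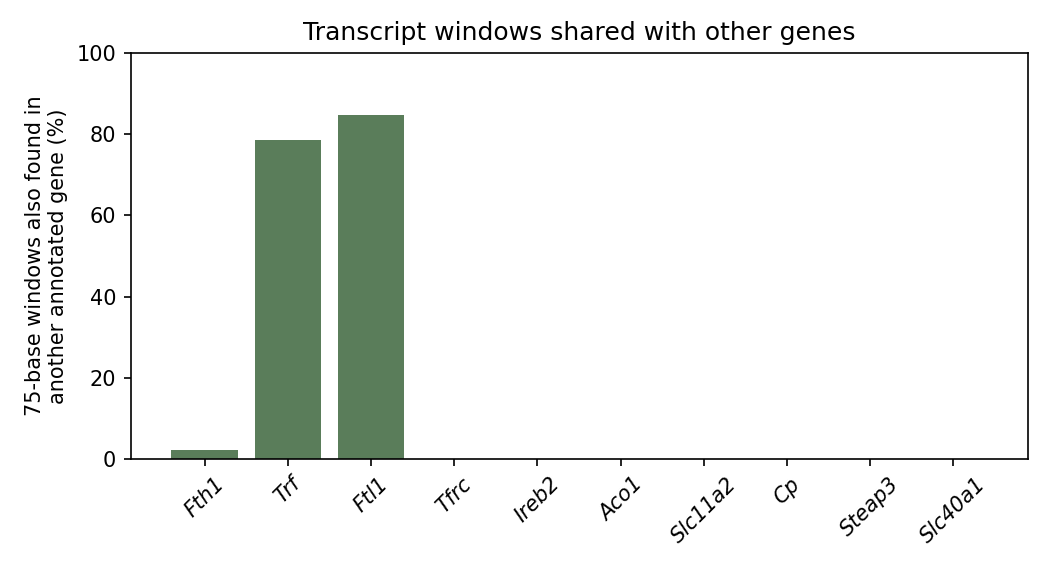
Share, in percent, of all 75-base windows of each gene's longest coding transcript that also occur in another annotated gene, 1 bar per gene. Ftl1 reached 84.8% and Trf 78.6%, Fth1 was at 2.32%, and the other 7 genes were at 0.

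The export genes had higher means in the vHPC than in the dHPC. Slc40a1 (chr1:45908068-45926523, minus strand) encodes ferroportin, the iron exporter, and Cp (chr3:19957054-20009145, plus strand) ceruloplasmin, a ferroxidase that acts with it. Slc40a1 had 3.17 log2 CPM (9.00 CPM, percentile 43.4) in the dHPC and 3.68 log2 CPM (12.8 CPM, percentile 56.4) in the vHPC. Cp had 3.92 log2 CPM (15.1 CPM, percentile 52.9) and 4.40 log2 CPM (21.1 CPM, percentile 65.1). Per kilobase, Slc40a1 was 0.632 times Cp in the dHPC and 0.646 times in the vHPC, so their ratio was close in the 2 regions while both means were higher in the vHPC.

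The iron regulatory proteins were at middle to high levels. Aco1 (chr4:40143081-40198338, plus strand) encodes the cytosolic aconitase that turns into iron regulatory protein 1 when it loses its iron-sulphur cluster, and Ireb2 (chr9:54863789-54912530, plus strand) iron regulatory protein 2, which is degraded when iron is plentiful. Aco1 had 4.91 log2 CPM (30.1 CPM) in the dHPC and 4.82 log2 CPM (28.2 CPM) in the vHPC. Ireb2 had 6.00 log2 CPM (64.0 CPM) and 6.28 log2 CPM (77.8 CPM). Ireb2 was 2.13 and 2.76 times Aco1 in CPM but 1.01 and 1.31 times per kilobase, since its gene model is longer (9479 against 4496 bases). The longest coding transcripts differ less in length (5770 against 3832 bases), so the ratio per kilobase depends on the length chosen.

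Gene length changed the order of the members. In CPM the order from high to low in the dHPC was Fth1, Trf, Tfrc, Ireb2, Ftl1, Slc11a2, Aco1, Cp, Slc40a1 and Steap3. Per kilobase of gene model it was Fth1, Trf, Ftl1, Tfrc, Ireb2, Aco1, Slc11a2, Cp, Steap3 and Slc40a1. The vHPC differed from the dHPC in the places of Slc11a2 and Ftl1 in CPM, and in those of Slc40a1 and Steap3 per kilobase. The gene model is the union of all annotated exons, which can be much longer than a single transcript. For Slc40a1 it has 9000 bases against 3370 in the longest coding transcript, and for Steap3 5715 against 5158. Orders and ratios per kilobase depend on this choice of length, and levels per transcript length were not computed. Without a spread between libraries it cannot be said which neighbours in these orders differ.

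The regions were compared next, to see which of the iron genes had different means in the dHPC and vHPC. Trf and Fth1 had higher means in the dHPC, and Slc40a1 and Cp higher means in the vHPC. The authors fitted and normalised the regions separately, so each difference (dHPC minus vHPC) was centred on the median difference over the 18257 genes in both regions, a shift of 0.014 on the log2 scale. Trf had the largest difference, 0.88 on the log2 scale or 1.84-fold. Fth1 followed with 0.75, or 1.68-fold. In the other direction the difference was -0.52 for Slc40a1, which is 1.44-fold, and -0.49 for Cp, which is 1.41-fold.

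These 4 of the 10 members were past a 1.3-fold difference, against 25.4% of all genes. The study used this fold together with a p-value threshold for its CORT comparisons, and here it was applied between regions without a test. Past that fold, 2 were higher in the dHPC, against 11.1% of all genes, and 2 were higher in the vHPC, against 14.4%. Of the members within it, Ireb2 lay nearest to the threshold at -0.29, and on the same side Slc11a2 was at -0.19 and Tfrc at -0.15. On the dHPC side Ftl1 was at 0.18, Steap3 at 0.15 and Aco1 at 0.08. The median difference over the 10 members was -0.036, with 5 above and 5 below 0, and their median size was 0.24 on the log2 scale beside 0.21 for all genes. The chains of ferritin thus differed in size of difference, 0.75 for Fth1 and 0.18 for Ftl1, and the copies of Ftl1 limit what the second value measures.

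**Figure D3:**
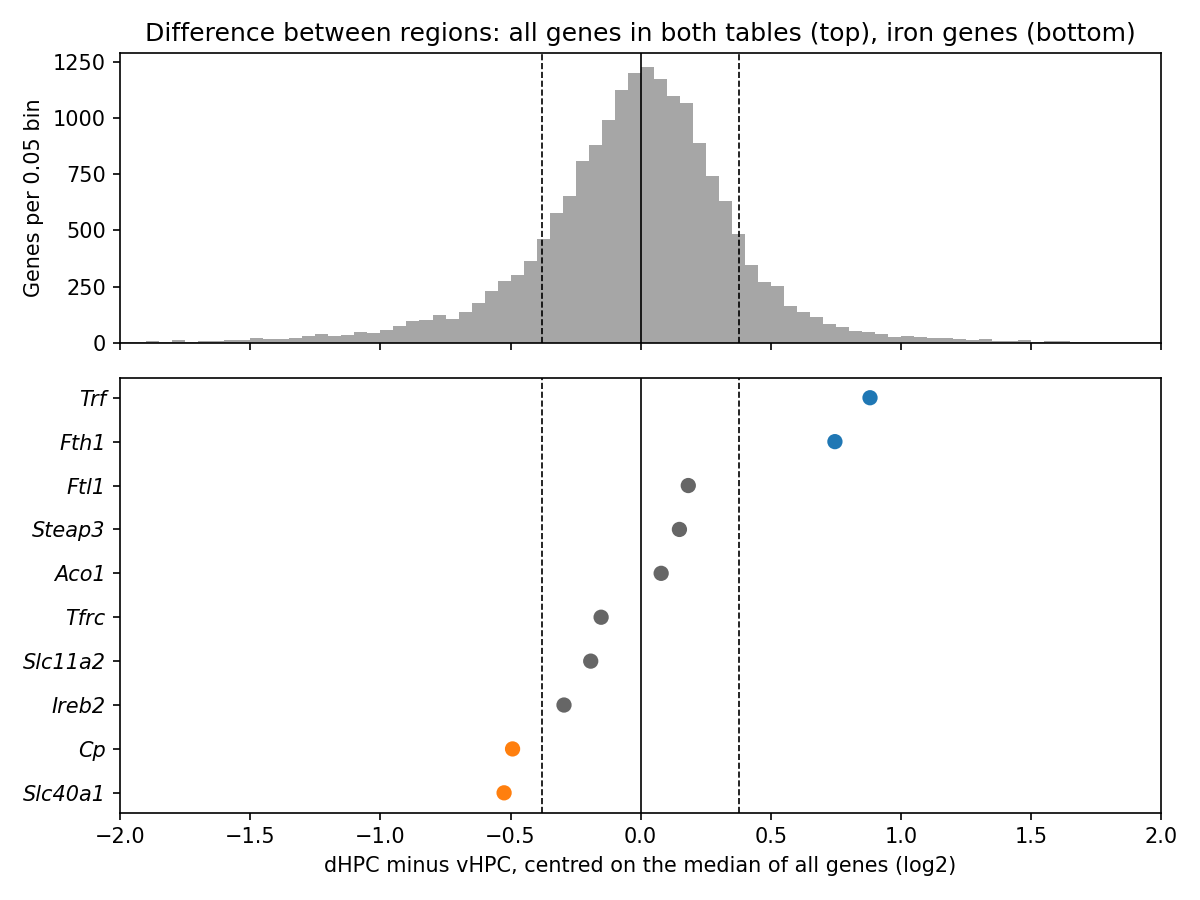
Difference in mean log2 CPM, dHPC minus vHPC, centred on the median of all genes. The top panel counts all genes in both regions per bin of 0.05 (genes beyond -2 or 2 are not drawn) and the lower panel shows each iron gene, with dashed lines at 1.3-fold; Trf (0.88) and Fth1 (0.75) lie past the line on the dHPC side, Slc40a1 (-0.52) and Cp (-0.49) on the vHPC side.

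Markers of several cell types were set beside these differences. All 6 of 6 oligodendrocyte markers (Mbp, Mog, Mag, Mobp, Cnp and Cldn11) were past 1.3-fold towards the dHPC, by 1.07 to 1.38 on the log2 scale, and their summed level was 5642 CPM in the dHPC and 2225 CPM in the vHPC. All 6 of 6 choroid plexus markers (Ttr, Kl, Folr1, Aqp1, Otx2 and Clic6) were also past it towards the dHPC, by 0.47 to 1.33, with sums of 1127 and 475 CPM. Trf and Fth1 differed in the direction of both lists. No defining marker of either list was listed at 0 or lacked a level, and the part of these cells in the Trf and Fth1 differences was not tested.

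Slc40a1 and Cp differed in the other direction. Of 5 endothelial markers 2 were past 1.3-fold towards the vHPC, in a range of -0.52 to 0.01, and their summed level was 145 CPM in the dHPC and 182 CPM in the vHPC. None of the 4 microglial, 4 astrocyte and 4 neuronal markers was past the fold, and 1 of 5 red blood cell markers was, towards the dHPC. The part of these cells in the Slc40a1 and Cp differences was not tested. In tissue RNA, fewer cells of a type and less RNA per cell cannot be told apart.

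**Figure D4:**
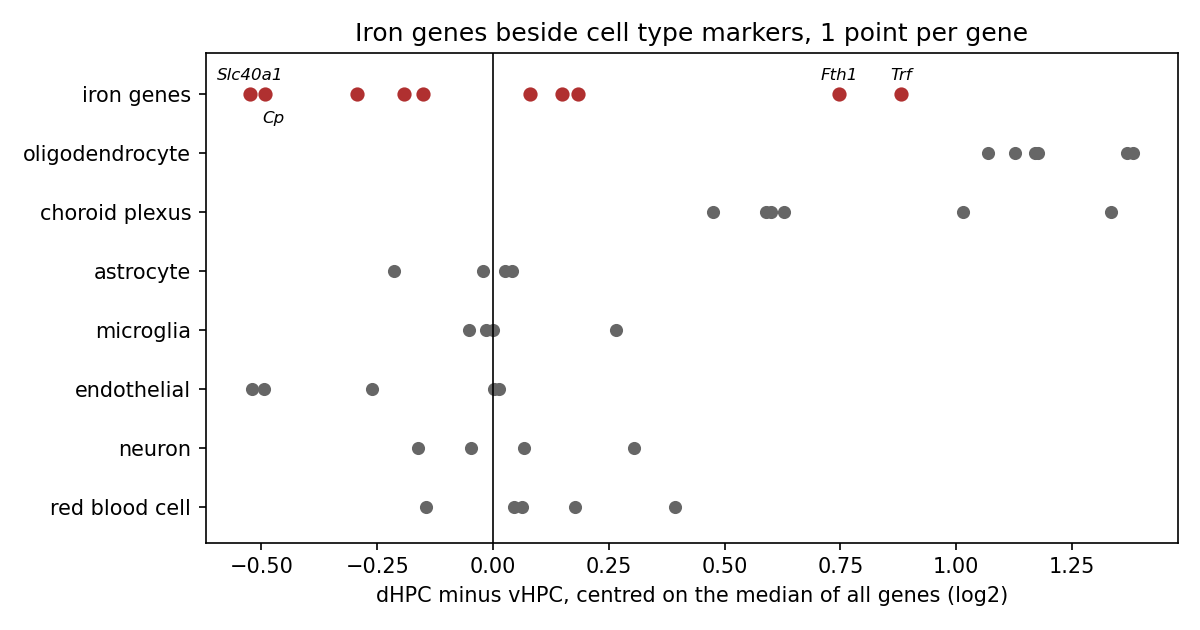
Difference in mean log2 CPM, dHPC minus vHPC, centred on the median of all genes, for the 10 iron genes (red) and for the markers of 7 cell types (grey), 1 point per gene. All oligodendrocyte markers (1.07 to 1.38) and choroid plexus markers (0.47 to 1.33) lie to the right of 0, on the side of Trf and Fth1, and Slc40a1 and Cp lie to the left.

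The regional labels were checked against markers of the tissue. Wfs1 and Lct, enriched in dorsal hippocampus, were higher in the dHPC by 1.11 and 2.23 on the log2 scale, and Trhr, Grp and Dcn, enriched in the ventral part, were higher in the vHPC, with differences from -1.90 to -3.48. The hippocampal genes Prox1, Neurod6 and Zbtb20 had means of 6.49 to 8.16 log2 CPM over the 2 regions. Prox1 (0.62) and, narrowly, Neurod6 (0.38) were past 1.3-fold towards the dHPC, and Zbtb20 (-0.31) was within that fold on the vHPC side.

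The deposited tables also hold the degrees of freedom of the authors' fit, which can differ from gene to gene. Residual degrees of freedom were 24 in the dHPC, which is 32 libraries less 8 groups, and 22 in the vHPC, where fewer libraries or more fitted terms than the labels list cannot be told apart. Total degrees of freedom, which add what limma borrows from other genes, reached 28.6 and 26.7 for most genes, and lay below this maximum for the rest. limma's robust option gives such lower values to genes whose spread between libraries is unusually wide, but whether the option was used is not given in the sources used here. Values were below the maximum for 14.9% of all genes in the dHPC and 15.4% in the vHPC.

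Trf, Slc40a1 and Cp were below the maximum in both regions, and Fth1, Ftl1 and Tfrc in the vHPC. In the dHPC the 3 members below the maximum were Trf at 27.0, Cp at 27.6 and Slc40a1 at 28.3, against 14.9% of all genes. In the vHPC the 6 members below it were led by Trf at 23.3 and Cp at 23.4, followed by Slc40a1 at 26.0, Ftl1 at 26.4 and Fth1 and Tfrc at 26.5 and 26.6, against 15.4% of all genes. Slc11a2, Steap3, Aco1 and Ireb2 were at the maximum in both regions. Of the 4 genes past the fold between the regions, Trf, Cp and Slc40a1 were thus below the maximum in both regions, and Fth1 was so in the vHPC.

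**Figure D5:**
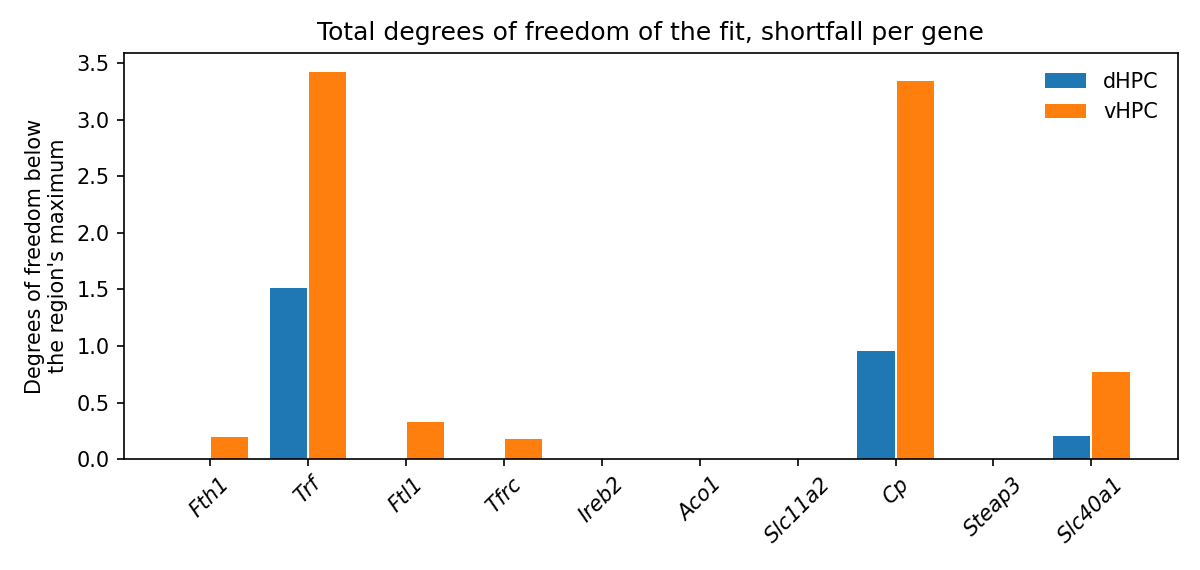
Total degrees of freedom below the maximum of the region for each gene in the dHPC (blue) and vHPC (orange), where 0 is the value most genes have. In the vHPC Trf (23.3) and Cp (23.4) lay farthest below the maximum of 26.7, and Slc11a2, Steap3, Aco1 and Ireb2 were at the maximum in both regions.

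The same markers were set beside these values. All 6 oligodendrocyte and all 6 choroid plexus markers were below the maximum in both regions, and so were all 5 red blood cell markers, the 3 hippocampal genes and the 2 dorsal markers. Of the 4 microglial markers 2 were below it in the dHPC and 4 in the vHPC, and of the 4 astrocyte and 5 endothelial markers 2 and 3 were in each region. Of the 3 ventral markers 2 were below it in the dHPC and 3 in the vHPC. Choroid plexus markers ran from 24.3 to 24.7 in the dHPC and from 22.2 to 22.4 in the vHPC, and oligodendrocyte markers from 26.7 to 27.6 and from 23.1 to 23.9. In the vHPC the values of Trf and Cp lay within the range of the oligodendrocyte markers, and also within that of the hippocampal genes (23.2 to 24.5) and the red blood cell markers (22.6 to 23.8). In the dHPC Trf lay within the oligodendrocyte range and Cp just above it. Trf and Cp both lay within the dHPC ranges of the hippocampal genes (26.3 to 27.7) and the red blood cell markers (25.3 to 27.6). The same held for the dHPC ranges of the ventral markers (26.0 to 28.6) and the astrocyte markers (26.9 to 28.6). Cp alone lay within that of the microglial markers (27.5 to 28.6). The 4 neuronal markers were at the maximum in both regions. Whether these cells had a part in the lower values of Trf and Cp was not tested.

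The wider set of iron genes had 29 genes, of which 25 had a level and 24 had one in both regions. Past 1.3-fold, 2 of the 24 were higher in the dHPC and 3 in the vHPC, against 11.1% and 14.4% of all genes, and the median difference was 0.059. The highest in CPM, without regard to gene length, was Slc22a17, a receptor for lipocalin-bound iron, with 9.20 and 9.13 log2 CPM in the dHPC and vHPC. The iron chaperones of ferritin came next in CPM, with 7.15 and 6.73 log2 CPM for Pcbp1 and 6.97 and 6.87 for Pcbp2.

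Toward the dHPC the largest differences were those of Hjv, a co-receptor in hepcidin control, at 0.91 and with a low mean of -1.76 log2 CPM in the dHPC, of Pcbp1 at 0.41, and of the haem-degrading enzyme Hmox1 at 0.28, which was within 1.3-fold. Toward the vHPC they were those of Tfr2, a second transferrin receptor, at -0.99, of the ferrireductase Cybrd1 at -0.89, and of Slc25a37, the mitochondrial iron importer, at -0.56. The receptors of transferrin thus differed in size of difference, -0.15 for Tfrc and -0.99 for Tfr2. Tfr2 also had much the lower level, 1.95 and 2.93 log2 CPM in the dHPC and vHPC, beside 6.97 and 7.11 for Tfrc. Ftmt, Hephl1, Hamp and Hamp2 had no level under these symbols in either region.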

How the data were processed

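Hippocampal RNA was sequenced as single-end 75-base reads from a stranded kit. The authors discarded reads with a score under 15, aligned the rest to GRCm38 with STAR, counted them per gene with featureCounts and fitted limma-voom in each region (versions not given in the sources used here, nor whether counting used the strand). They deposited 8 tables, one per comparison of CORT with Veh. The deposited mean expression is on the log2 scale of CPM (counts scaled to library size); it was the same to within 0.0001 in the 4 tables of a region, and it is the only measure of level used here. The deposited degrees of freedom, another unit, were used as well. The fold changes, standard errors, t, p-values and adjusted p-values of the tables are the authors' own comparisons and were not used.

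Levels per kilobase used the union of annotated exons; 21090 of 21114 gene identifiers (99.9%) were found in the GENCODE annotation of GRCm38. With 1 mean per gene and region no test was possible. Depth was stated in the labels only as an approximate number of reads, so no counting error was computed. Windows of 75 bases and UTR letters were searched in the GENCODE transcripts. All 10 members are named. Of the other iron genes the text names the 3 highest in CPM and the 3 of largest difference in each direction. The result of 1 marker gene is not reported here. Members and lists were chosen with earlier results of these data known. Alternatives were no centring, centring on genes of at least 1 log2 CPM, folds of 1.2 and 1.5, other backgrounds for percentiles, and levels per kilobase. Python 3.11.15, numpy 2.4.6, pandas 2.3.3 and matplotlib 3.10.9 were used.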

Additional observations from a re-analysis of the deposited data

How the results depend on the processing

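The differences of all 10 members kept their direction with no centring and with centring on genes of at least 1 log2 CPM, and 4 members were past 1.3-fold in each case. The shifts were only 0.014 over all genes and 0.020 over those of at least 1 log2 CPM. Neither result could change, since the smallest difference was 0.079 (Aco1). The members nearest to 1.3-fold (0.38 on the log2 scale) were Ireb2 at -0.29 and Cp at -0.49. At 1.5-fold 2 members were past it, Trf and Fth1, and at 1.2-fold 5, with Ireb2 added on the vHPC side. Among genes of at least 1 log2 CPM the median percentile of the members was 62.5 in the dHPC and 62.7 in the vHPC, by construction, since low genes leave the background. Per kilobase, 7 members changed place in the order of the dHPC and 5 in that of the vHPC. No paired analysis was possible because the levels are means over the libraries of a region and come from no test. For the same reason no library could be left out. The levels of Trf and Ftl1 are limited by the genes that share their reads.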
